A study of Mus musculus with 16 samples.

Results

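The mitochondrial ribosomal protein genes of the mouse hypothalamus, all genes whose symbol begins with Mrpl or Mrps and a digit, were followed across treatment with the antipsychotic olanzapine and the antibiotic minocycline. By this rule there were 78 members among the 15983 genes of the table that holds the groups OLZ+MINO, OLZ and CTRL, and the same 78 among the 16005 genes of a second table that holds MINO and CTRL. Of these, 77 matched the GENCODE vM21 annotation of GRCm38 by identifier, 75 as protein coding genes and 2, Mrpl23-ps1 and Mrps36-ps1, as processed pseudogenes. The identifier of Mrpl33 was not matched, and with it 76 genes are treated as coding for protein. They comprise 49 proteins of the large subunit, 26 of the small subunit, and Mrps36, which despite its name is known as a component of the oxoglutarate dehydrogenase complex. Mrps30 and Mrps18a are counted with the large subunit, where their proteins are known to lie.

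All mice were C57BL/6 females that entered the experiment at 10 weeks. All ate a diet with 45 kcal% of fat for the 12 weeks that followed, so that no group was on chow. OLZ+MINO mice ate this diet with 54 mg olanzapine per kg and drank water with 0.6 mg/mL minocycline, OLZ mice had the olanzapine diet and plain water, MINO mice had the plain high fat diet and minocycline, and CTRL mice had the plain high fat diet alone. Each group held 4 mice, and each dissected hypothalamus gave 1 TruSeq RNA-seq library (n = 4 per group). The study set out to learn what minocycline changes in the hypothalamus of olanzapine-treated mice.

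The mitochondrial ribosome translates the mRNAs of the mitochondrial genome, all of which code for subunits of the respiratory chain and the ATP synthase. Its 2 rRNAs, mt-Rnr1 of the small subunit and mt-Rnr2 of the large subunit, are transcribed in the mitochondrion, while every one of its proteins is encoded in the nucleus, made in the cytosol and imported. Minocycline is a tetracycline, a class that binds the small subunit of bacterial ribosomes and blocks the entry of the aminoacyl-tRNA, and tetracyclines are known to slow translation on the related mitochondrial ribosome too.

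Some members share all or nearly all coding bases with a copy, and these sequences are shown because the values below turn on them. A copy with at least 90% identity over at least 50% of the coding sequence was found for 27 members, and for 5 of them that copy is itself listed in the tables. The 441 coding bases of Mrpl23 (GRCm38 chromosome 7, 142532686 to 142540747, plus strand) recur without a difference in Mrpl23-ps1 (chromosome 2, 74591330 to 74591909, minus strand). The first 150 bases, from the GENCODE vM21 transcripts of GRCm38 as are all sequences here, stand for both genes.
Mrpl23 and Mrpl23-ps1: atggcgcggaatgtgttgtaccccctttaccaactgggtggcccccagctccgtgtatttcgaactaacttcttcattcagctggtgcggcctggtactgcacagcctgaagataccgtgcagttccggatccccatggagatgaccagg
Mrps36 (chromosome 13, 100735955 to 100744659, minus strand) and Mrps36-ps1 (chromosome 17, 53866715 to 53867020, minus strand) differ at 2 of 306 aligned bases, A76C and C128T, counted from 1 at the start codon with the base of the gene first. Both are in capitals.
Mrps36: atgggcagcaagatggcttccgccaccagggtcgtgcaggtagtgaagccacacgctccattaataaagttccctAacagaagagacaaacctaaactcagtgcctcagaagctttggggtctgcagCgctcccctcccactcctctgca
Mrps36-ps1: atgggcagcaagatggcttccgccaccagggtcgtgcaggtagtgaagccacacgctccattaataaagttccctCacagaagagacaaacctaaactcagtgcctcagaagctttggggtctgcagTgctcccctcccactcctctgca
Mrps33, a gene with a called change, has a copy of the same kind in Gm5776 on chromosome 7, which neither table lists. The 321 coding bases differ at 1 position, G171A, again in capitals in the stretch that begins at base 141.
Mrps33: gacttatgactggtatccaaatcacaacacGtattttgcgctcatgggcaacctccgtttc
Gm5776: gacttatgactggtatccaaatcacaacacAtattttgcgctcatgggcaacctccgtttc

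The deposited values are read counts that the authors had multiplied by 1 factor per library and rounded, called scaled counts here. They summed to between 8435016 and 9279227 per library in the first table and to between 8783427 and 9447616 in the second, and steps between low values, readable in 13 of 20 library columns, put the depth at 8.0 to 9.74 M reads. A gene is said to rise or fall where limma, fitted on log2(value + 1) over all genes of a table, gave a Benjamini-Hochberg adjusted p under 0.3. The study set its limit at an FDR under 0.3, but describes a local false discovery rate and q values, which are other measures. Nothing in the sources says whether the mice of a group came from separate cages, and p-values measure the spread between these mice. Markers of neurons, astrocytes, oligodendrocytes and microglia were present in every library, as were those of tanycytes (6 of 6 measured, 1 with a 0 in some library), the glia of the third ventricle wall. The summed tanycyte markers spanned 2233 to 3988 in OLZ+MINO, 5758 to 8412 in OLZ and 3068 to 3945 in CTRL, and 3643 to 7355 in MINO. In whole tissue, fewer cells of a type and less RNA per cell cannot be told apart. OLZ+MINO mouse 48 stood apart in dissection markers. Its summed hypothalamus markers were 721, against 3214 to 8840 in the other OLZ+MINO mice, its summed thalamus markers were 7016, against 1113 to 1459, and limma gave it the lowest array weight, 0.537. The part of these markers in the results below was not tested.

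The members together took a small and even share of each library. Summed over all 78, they had 14095, 13360, 13465 and 13032 scaled counts in the OLZ+MINO mice (numbers 37, 40, 47 and 48), 13266, 13458, 13170 and 12909 in the OLZ mice (13, 14, 17 and 19), and 13883, 13904, 12959 and 13676 in the CTRL mice (3, 4, 5 and 11). In the second table the sums were 13681, 13243, 14049 and 13870 in the MINO mice (26, 31, 35 and 36), against 13961, 13988, 13018 and 13758 in the CTRL mice. The groups overlapped in both tables. As a share of the library this was 0.140% to 0.157% in OLZ+MINO, 0.152% to 0.157% in OLZ, 0.145% to 0.157% in MINO and 0.148% to 0.159% in CTRL.

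Within the ribosome, genes differed far more in level from each other than any coding member differed between groups. Per kb of annotated exon, a scale that counts every exon of a gene once whatever its transcripts, the mean over the 12 libraries of the first table spanned 13.9 to 259 scaled counts in the 75 members with a known length, a range of 18.7-fold around a median of 63.9. Mrpl41 stood highest at 259, followed by Mrps18c at 246, Mrps21 at 211 and Mrpl27 at 182 scaled counts per kb. Mrpl23 at 13.9, Mrps35 at 15.1 and Mrpl32 at 16.4 stood lowest, and these have 4883, 8631 and 4982 bases of annotated exon, against 888 for Mrpl41. The value of Mrpl23 leaves out the scaled counts given to its copy Mrpl23-ps1, a mean of 46.2 beside 67.8 for the gene. Its place and the low end of the range depend on that division. Both subunits were spread over the whole range.

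**Figure D1:**
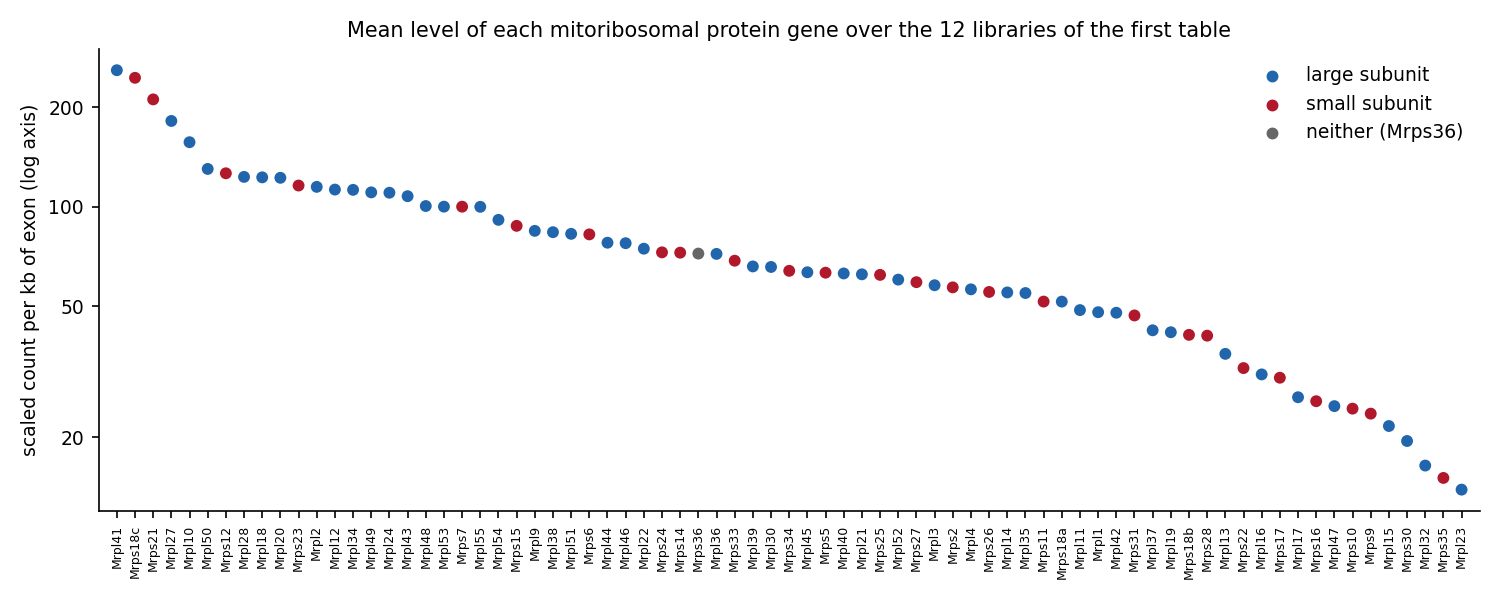
Mean scaled count per kb of exon over 12 libraries (log axis) for the 75 mitoribosomal protein genes with an annotated length, ordered from high to low and coloured by subunit. The levels run down from Mrpl41 at 259 to Mrpl23 at 13.9, with large and small subunit genes interleaved. Mrpl23 is shown without the scaled counts of Mrpl23-ps1.

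The members were about as steady between mice of a group as other genes of like level. The median within-group SD of log2(value + 1) was 0.195 over the 76 genes, against 0.213 over the 11029 genes in the same range of mean levels. It ran from 0.0854 for the most even gene to 1.21 for Mrpl23, whose near-identical copy is described below. In CTRL mouse 5 several members stood low, with 8 scaled counts of Mrpl23, 26 of Mrps36 and 13 of Mrps28. Its mean log2 value over the coding members, 7.12, was the lowest of the 12 libraries of that table. This mean leaves out the pseudogenes, and in that mouse Mrpl23-ps1 had 110 and Mrps36-ps1 had 52 scaled counts. Summed over all 78 members, mouse 5 had 12959, above the 12909 of OLZ mouse 19.

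Adding minocycline to olanzapine moved few of these genes. For OLZ+MINO against OLZ, 2 members rose (Mrps33 and the pseudogene Mrps36-ps1) and 1 fell (Mrpl32), where 5.99% of all genes rose and 6.36% fell. The median log2 fold change of the 76 coding members was 0.035 and that of all genes 0.0048. For 73 of the 76, the 95% interval of the change lay within 2-fold in either direction, and for 62 it lay within 1.5-fold. At an unadjusted p under 0.05, 2 members were higher and 1 lower, beside 7.2% and 7.68% of all genes, and 1 member lay wholly above and 1 wholly below the OLZ mice, beside 3.5% and 4.2% of all genes (7.7% in either direction). In the large subunit 33 of 49 genes were higher and 16 lower (median 0.04), and in the small subunit 14 of 26 were higher and 12 lower (median 0.02).

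Mrps33, a small subunit protein with no bacterial counterpart, had 171, 122, 113 and 111 scaled counts in OLZ+MINO mice, against 107, 95, 110 and 66 in OLZ mice. Every OLZ+MINO value lay above every OLZ value, the nearest by a single scaled count. On the log2 scale it rose by 0.45 with a standard error of 0.18 (limma adjusted p = 0.265), and the two-sided exact permutation p was 0.0286, the smallest that 4 against 4 allow. The CTRL mice, with 105, 122, 117 and 133, overlapped both. Whether reads of Mrps33 were placed on its unlisted copy Gm5776 cannot be told from the values. The call was lost on leaving out OLZ mouse 13, 14 or 19 or OLZ+MINO mouse 37, 40 or 48 (adjusted p 0.361 to 0.463), and the log2 fold change fell to 0.29 without OLZ mouse 19.

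Mrpl32, a large subunit protein whose maturation by the m-AAA protease of the inner membrane is a known step of ribosome assembly, had 85, 42, 71 and 74 scaled counts in OLZ+MINO mice, against 103, 104, 93 and 92 in OLZ mice. The groups did not overlap, and on the log2 scale it fell by 0.56 with a standard error of 0.22 (limma adjusted p = 0.247). CTRL mice had 89, 90, 55 and 84, all below the OLZ mice and overlapping the OLZ+MINO mice. Mrpl32 also has unlisted copies, Gm6578 with 94.9% identity over its whole coding sequence and Gm31849 with 94.2% over 63.7% of it. Whether reads of Mrpl32 were placed on them cannot be told from the values. The change rested in part on OLZ+MINO mouse 40, without which it was -0.35 (adjusted p = 0.496), and the call was also lost without OLZ mouse 13, 14 or 17 or OLZ+MINO mouse 48 (0.303 to 0.486).

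Of the members that did not pass, Mrps10 had the smallest p among those higher, at 0.22 (adjusted p = 0.365), and Mrpl53 at -0.25 (adjusted p = 0.463) and Mrps6 at -0.29 (adjusted p = 0.483) had the smallest among those lower. Mrps10 belongs to the head of the small subunit, and it had 219, 218, 204 and 222 scaled counts in OLZ+MINO mice, against 208, 168, 164 and 206 in OLZ mice. The coding sequence of Mrpl53 lies entirely inside a transcript of the listed gene Gm42688, so that its value could include reads of that gene.

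No member of the structural classes below was called in this comparison, and how near each lies to the site where tetracyclines bind was not measured. Of the decoding centre and head of the small subunit (Mrps12, Mrps10, Mrps7, Mrps14 and Mrps5), 0 of 5 passed for OLZ+MINO against OLZ, all 5 were higher and their log2 fold changes spanned 0.04 to 0.23. Mrps12, the counterpart of the bacterial protein that monitors codon pairing, had 170, 108, 161 and 127 scaled counts in OLZ+MINO mice, against 141, 127, 84 and 132 in OLZ mice, and these overlapped. Of the stalk that recruits translation factors (Mrpl10, Mrpl11 and Mrpl12), 0 of 3 passed, with log2 fold changes of 0.05, 0.04 and 0.30. Mrpl12 had 202, 159, 180 and 194 scaled counts in OLZ+MINO mice, against 159, 151, 160 and 128 in OLZ mice (adjusted p = 0.441). Of the exit tunnel and its contact with the inner membrane (Mrpl4, Mrpl22, Mrpl23, Mrpl24 and Mrpl45), 0 of 5 passed, with changes of 0.00 to 0.13. None of these 13 genes had an unadjusted p under 0.05 in limma. Mrps30 differed by 0.01 and Mrps18a by 0.13, neither past the threshold. The changes of Mrpl4 and Mrps30, near 0, took the opposite sign when libraries were scaled to equal totals without the rRNAs.

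The scaled counts of the RNAs that these proteins join behaved otherwise. The paper names TruSeq kits but does not say whether poly(A) RNA was selected or rRNA removed. Whether these scaled counts follow the amount of rRNA in the tissue was not tested. In OLZ+MINO mice mt-Rnr2 had 841757, 852491, 806520 and 811973 scaled counts, against 521652, 585218, 566663 and 590782 in OLZ mice. The groups did not overlap, and on the log2 scale it rose by 0.55 with a standard error of 0.15 (limma adjusted p = 0.122). The small subunit rRNA mt-Rnr1 rose as well, with 145371, 160274, 136757 and 154016 in OLZ+MINO mice, against 75190, 86734, 95107 and 96010 in OLZ mice (log2 fold change 0.76, standard error 0.14, adjusted p = 0.0431). For each scaled count of the members there were 59.7 to 63.8 of mt-Rnr2 in OLZ+MINO mice, against 39.3 to 45.8 in OLZ mice and 36.7 to 42.9 in CTRL mice. Of the 13 mRNAs of the mitochondrial genome, 11 rose and the median log2 fold change was 0.41, led by mt-Nd3 at 0.58 and followed by mt-Nd2 at 0.49 and mt-Co3 at 0.47. Without OLZ mouse 13, 2 of the 13 mRNAs and 1 of the rRNAs passed, and without OLZ+MINO mouse 40 or mouse 48, which stood apart above, 4 of the mRNAs and both rRNAs did. Quantile normalization, which gives the highest gene of every library (here mt-Rnr2) the same value, put mt-Rnr2 at 0.00 and so past no threshold, with mt-Rnr1 at 0.59 and 12 of the 13 mRNAs past the threshold. Markers of cell types moved in the same comparison. Neurons had 5 of 5 higher and 3 that rose (median 0.27), and oligodendrocytes 5 of 5 higher and 2 that rose (median 0.40). Microglia had 5 of 5 lower and 2 that fell (median -0.23), and tanycytes 6 of 6 lower and 5 that fell (median -2.03). Of the astrocyte markers 4 of 5 were higher and 1 fell (median 0.08). Of the hypothalamus markers 6 of 8 were lower and 3 fell (median -1.94). Thalamus markers were 3 of 3 higher with 0 past the threshold (median 1.02). Summed neuron markers were 13668 to 21578 in OLZ+MINO mice, against 11517 to 14766 in OLZ mice. The part of all these markers in the changes of the rRNAs and mRNAs was not tested.

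**Figure D2:**
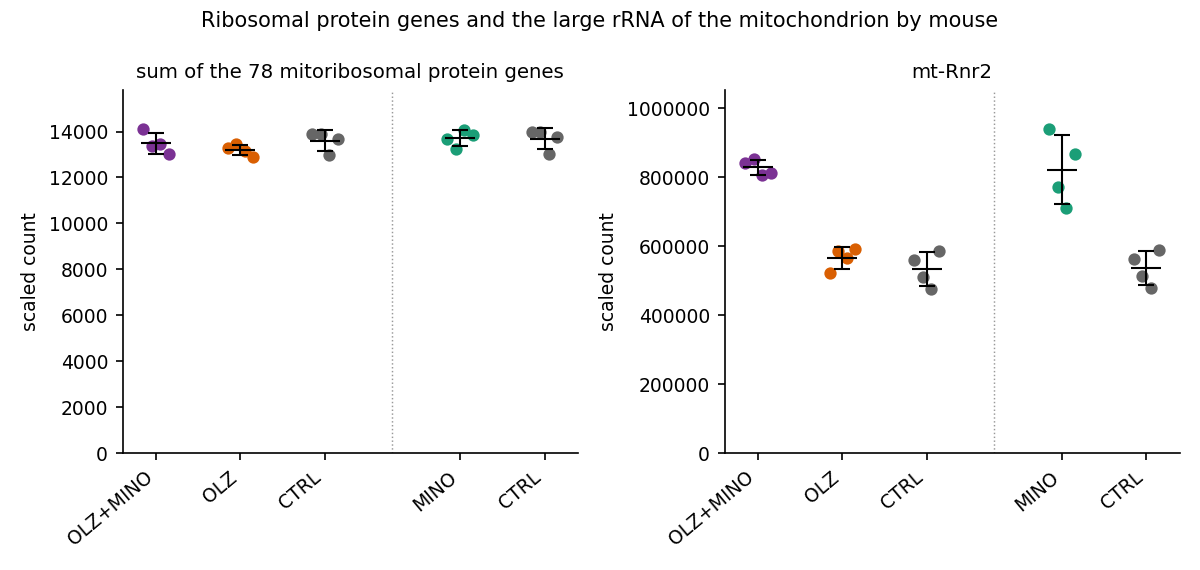
Scaled counts by mouse (points), with the mean and SD of each group (n = 4), for the sum of the 78 mitoribosomal protein genes and for mt-Rnr2. The dotted line separates the tables, which were scaled separately. The sums overlap in all groups, at 12909 to 14095 scaled counts in the first table, while mt-Rnr2 is higher in every mouse given minocycline than in any other mouse.

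The other nuclear genes of mitochondrial translation, taken from lists, gave single calls. Of 15 translation factors, 1 rose, Gfm2, a mitochondrial elongation factor that acts in ribosome recycling, at 0.34 (adjusted p = 0.201). Of 22 genes of ribosome assembly and rRNA modification, 1 fell, Rbfa, a factor in maturation of the small subunit, at -0.43 (adjusted p = 0.255). Of 20 mitochondrial tRNA synthetases 1 fell, Wars2 at -0.66 (adjusted p = 0.224), and of 6 measured genes of mitochondrial transcription 1 fell, the elongation factor Tefm at -0.73 (adjusted p = 0.158). Of the 7 mitoribosome proteins that carry other symbols, such as Dap3 and Ptcd3, 0 passed (smallest adjusted p 0.305, 1 at an unadjusted p under 0.05 in limma). Of 28 nuclear genes of the respiratory chain 2 rose, Cox5a at 0.28 and Atp5b at 0.21. Of 10 regulators of mitochondrial gene expression 0 passed (0 at an unadjusted p under 0.05), and of 13 measured genes of the mitochondrial stress response 1 rose, Chac1 at 0.60. The 74 cytosolic ribosomal protein genes moved differently from the mitochondrial ones, with 25 that fell, 1 that rose and a median log2 fold change of -0.18. The difference between these lists was not tested.

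**Figure D3:**
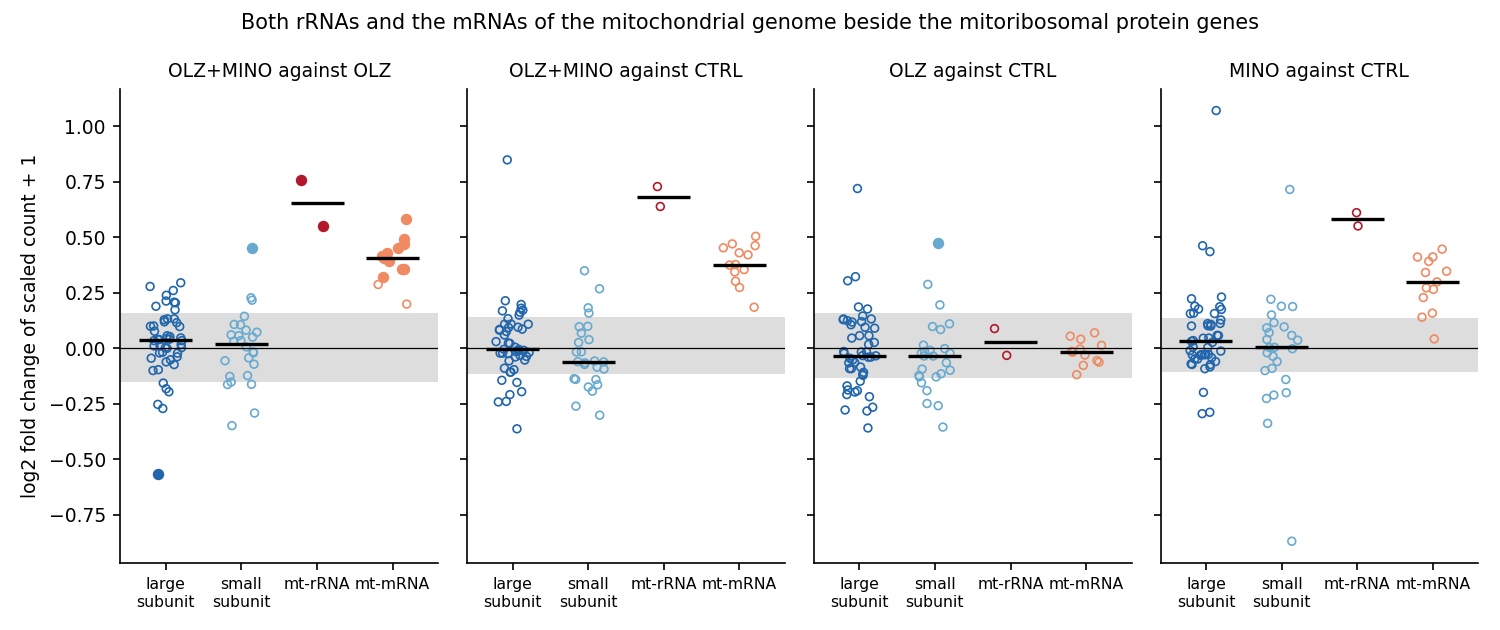
Log2 fold change of scaled count + 1 (points) for 49 large subunit and 26 small subunit genes, the 2 rRNAs and the 13 mRNAs of the mitochondrial genome, in 4 comparisons. Filled points passed an adjusted p of 0.3, bars are medians and the grey band runs from the lower to the upper quartile of all genes. For OLZ+MINO against OLZ the rRNAs lie at 0.55 and 0.76, and most subunit genes lie within the grey band.

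Olanzapine alone also left most members in place. For OLZ against CTRL 1 member rose (Mrps35) and 0 fell, where 1.82% of all genes rose and 1.82% fell, or 664 and 211 genes in place of 291 and 291 when libraries were scaled to equal totals without the rRNAs. Of the members, 1 was higher and 0 were lower at an unadjusted p under 0.05 in limma, beside 5.76% and 5.67% of all genes. The median log2 fold change of the 76 coding members was -0.03, against 0.0037 for all genes, and with the other scaling the members were again lower than the median of all genes by 0.04. The 95% interval lay within 2-fold for 74 of the 76 and within 1.5-fold for 64.

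Mrps35, a small subunit protein with no bacterial counterpart (chromosome 6, 147042764 to 147073991, plus strand), had 161, 162, 135 and 134 scaled counts in OLZ mice, against 106, 96, 119 and 103 in CTRL mice. Every OLZ value lay above every CTRL value. This was a rise of 0.48 on the log2 scale with a standard error of 0.14 (limma adjusted p = 0.242, two-sided exact permutation p = 0.0286). In OLZ+MINO mice it had 148, 140, 151 and 106, which overlapped both other groups and exceeded CTRL by 0.35 on the log2 scale (limma adjusted p = 0.787). The call was lost without CTRL mouse 3, 4 or 11 or OLZ mouse 13, 14 or 19 (adjusted p 0.3 to 0.563), while the log2 fold change stayed between 0.43 and 0.52. Summed tanycyte markers did not overlap between OLZ and CTRL either, with the values given above, and their part in this result was not tested.

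**Figure D4:**
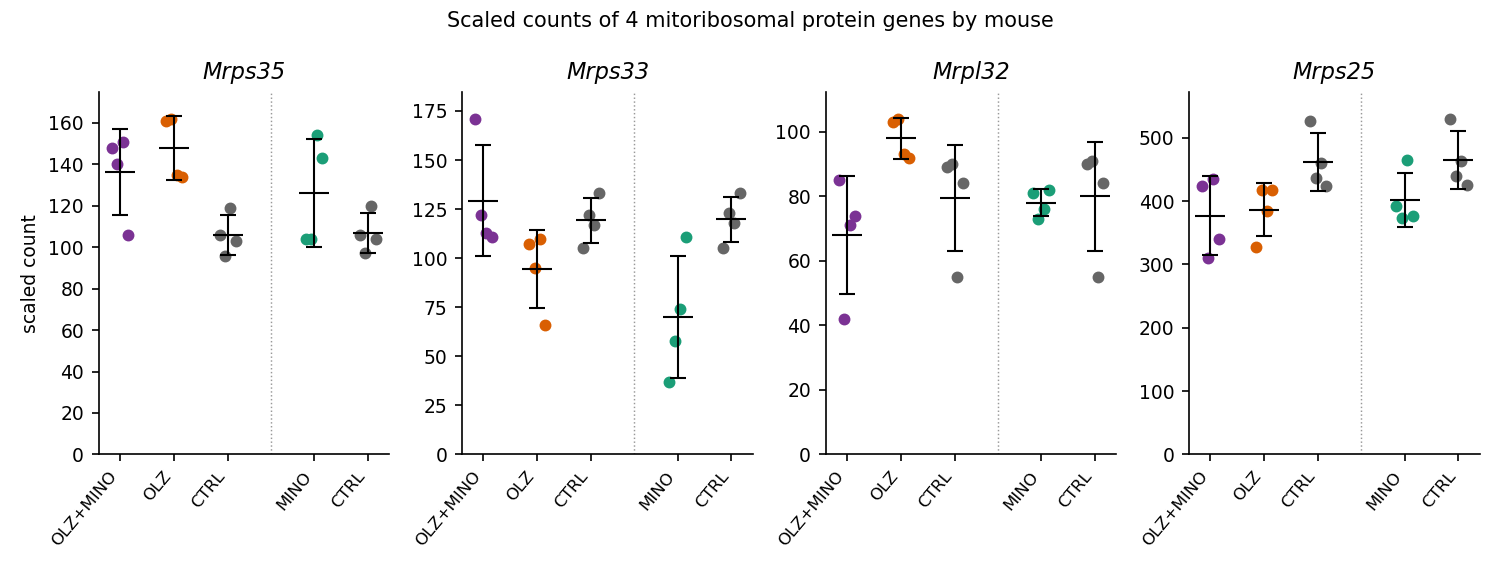
Scaled counts by mouse (points) with the mean and SD of each group (n = 4) for Mrps35, Mrps33, Mrpl32 and Mrps25. The dotted line separates the tables, which were scaled separately. Mrps35 lies at 134 to 162 in OLZ and at 96 to 119 in CTRL, and Mrps33 at 37 to 111 in MINO and at 105 to 133 in CTRL.

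The groups were separate in some members below the threshold in that comparison, at a share near that over all genes, given below. Mrps25, a small subunit protein, had 328, 417, 384 and 417 scaled counts in OLZ mice, against 527, 437, 460 and 424 in CTRL mice (log2 fold change -0.26, adjusted p = 0.438). Mrpl10 of the stalk had 266, 235, 245 and 266 in OLZ mice, against 272, 297, 302 and 284 in CTRL mice (-0.19, adjusted p = 0.442). Mrps18a had 186, 166, 179 and 177 in OLZ mice, against 202, 200, 199 and 195 in CTRL mice (-0.17, adjusted p = 0.546). Mrps27 also lay wholly below CTRL (-0.25, limma adjusted p = 0.52). Mrpl32 lay wholly above CTRL, as did Mrps35, at 0.32 (limma adjusted p = 0.604). In all, 2 members lay wholly above CTRL and 4 wholly below, where 3.64% and 3.31% of all genes did, which is 6 members of 78 beside 6.95% of all genes. The remaining genes named by the rule were Mrpl27 at 0.19, Mrpl52 at 0.30 and Mrpl40 at -0.28, with adjusted p of 0.552, 0.562 and 0.466.

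All 5 genes of the decoding centre and head were lower in OLZ than in CTRL, by log2 fold changes of -0.13 to -0.03, and 0 passed. With the other scaling, Mrps10 and Mrps14 took the opposite sign. The 3 stalk genes were lower as well, at -0.19 for Mrpl10, -0.09 for Mrpl11 and -0.27 for Mrpl12, and those of the exit tunnel ran from -0.20 for Mrpl24 to 0.72 for Mrpl23. Beside the members, 5 of the 28 nuclear respiratory chain genes fell (Cox5a at -0.37, Ndufb8 at -0.29, Uqcrc1 at -0.28, Atp5o at -0.27 and Atp5b at -0.24), and 27 of the 28 were lower. Against the same CTRL mice, 26 of the 28 were lower in OLZ+MINO and 24 in MINO, with 0 past the threshold in each. In OLZ mice neuron markers moved the same way against CTRL, with 5 of 5 lower (median -0.21). Of these 5, 0 passed the threshold, and 4 had an unadjusted p under 0.05 in limma. Their sums were 11517 to 14766 in OLZ mice, against 14774 to 19131 in CTRL mice, and their part in these changes was not tested. The translation activator Taco1 fell by 0.63 on the log2 scale (adjusted p = 0.264) and the tRNA synthetase Yars2 by 0.53 (adjusted p = 0.222). The rRNAs differed by 0.09 for mt-Rnr2 and -0.03 for mt-Rnr1, and 0 of these 2 and 0 of the 13 mitochondrial mRNAs (median -0.01) passed, with 0 at an unadjusted p under 0.05 in limma. Of the cytosolic ribosomal protein genes 3 of 74 rose and 0 fell. Of the assembly, transcription, regulator and stress response lists and of the proteins with other symbols, 0 passed in limma, with 3 at an unadjusted p under 0.05.

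Against CTRL, the combination left 0 members past the threshold in limma, where 0.025% of all genes were called. At an unadjusted p under 0.05, 1 member was higher (Mrps35) and 1 lower (Mrps25), of 78, beside 3.24% and 2.95% of all genes (6.19% in either direction). The median log2 fold change was -0.02 and the 95% interval lay within 2-fold for 75 of the 76 coding members. Mrps25 had 424, 310, 435 and 340 scaled counts in OLZ+MINO mice, against the CTRL values above, at -0.30 (adjusted p = 0.787). By p, Mrpl48 at 0.21 and Mrps34 at 0.27 came next among the members that were higher, and Mrpl50 at -0.24 among those that were lower. Mrps10 lay wholly above CTRL at 0.18 (adjusted p = 0.798), 1 member of 78, and 0 lay wholly below, where 1.46% of all genes lay wholly above and 1.47% wholly below (2.93% together). The rRNAs were higher by 0.64 and 0.73 and all 13 mitochondrial mRNAs were higher (median 0.38), with 0 of these 15 past the threshold and 14 at an unadjusted p under 0.05 in limma. Scaled to equal totals without the rRNAs, 3 of the mRNAs and both rRNAs passed. Without the intensity trend or without CTRL mouse 11, 1 rRNA passed, and with quantile normalization 1 mRNA passed and mt-Rnr2 was at 0.00. No gene of the other lists passed either. This comparison shares its libraries with the previous ones.

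Minocycline without olanzapine was compared with CTRL in the second table. No gene of the table passed in limma (0.0% of 16005), and so 0 members did, while 1 member was higher and 2 lower at an unadjusted p under 0.05, beside 3.01% and 3.41% of all genes (6.41% in either direction). The median log2 fold change of the 76 coding members was 0.03 and the 95% interval lay within 2-fold for 72 of them. Mrps33 had 37, 58, 74 and 111 scaled counts in MINO mice, against 105, 123, 118 and 133 in CTRL mice, which overlapped at 1 mouse (log2 fold change -0.87, standard error 0.27, unadjusted p = 0.00721, adjusted p = 0.768 from limma). In MINO and CTRL mice the within-group SD of log2(value + 1) was 0.47 for Mrps33, against a median of 0.19 over the 76 coding members. Here too, reads placed on the unlisted copy Gm5776 cannot be told. The direction of Mrps33 in MINO mice is the opposite of that with olanzapine, where it was higher by 0.45. The difference between the 2 log2 fold changes was not tested.

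Mrpl54, a large subunit protein of mitochondria, had 93, 91, 119 and 92 scaled counts in MINO mice, against 71, 103, 64 and 54 in CTRL mice (0.46, adjusted p = 0.768). Mrpl50, also of the large subunit, had 278, 267, 226 and 222 in MINO mice, against 356, 280, 264 and 321 in CTRL mice (-0.29, adjusted p = 0.768). Mrps28 had 50, 44, 50 and 44 in MINO mice, against 29, 40, 13 and 41 in CTRL mice, and was the 1 member that lay wholly above CTRL (0.72, adjusted p = 0.768). No member lay wholly below, while of all genes 1.38% lay above and 1.87% below (3.25% together). Mrpl52 at 0.44 and Mrps25 at -0.21 completed the members named by the rule. Of the decoding centre and head 3 of 5 were higher and 2 lower, from -0.14 for Mrps5 to 0.09 for Mrps10. The rRNAs were higher in MINO mice too. For mt-Rnr2 the values were 938402, 770278, 710968 and 866012 in MINO mice, against 564006, 512896, 478610 and 589911 in CTRL mice, at 0.61 with an adjusted p of 0.768 and no overlap, and mt-Rnr1 was higher by 0.55 with overlap. With quantile normalization these were 0.00 and 0.27. All 13 mitochondrial mRNAs were higher (median 0.30), 0 passed, and 7 had an unadjusted p under 0.05 in limma. Cell type markers differed here too, with 0 past the threshold. Neurons had 4 of 5 lower (median -0.17), oligodendrocytes 5 of 5 lower (-0.17) and microglia 3 of 5 lower (-0.06). Tanycytes had 6 of 6 higher (0.99), astrocytes 4 of 5 higher (0.18) and hypothalamus markers 5 of 8 higher (0.60). Thalamus markers were 3 of 3 lower (-0.70). The part of these markers in the rRNA and mRNA values was not tested. Of the genes called in the other comparisons, Mrps35 had 104, 104, 154 and 143 in MINO mice, against 106, 97, 120 and 104 in CTRL mice, and Mrpl32 had 81, 73, 76 and 82 in MINO mice, against 90, 91, 55 and 84 in CTRL mice, with overlap for both.

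The 2 comparisons that add minocycline share no library. Over the 74 coding members other than Mrpl23 and Mrps36, 41 had the same sign in both, 27 of them higher in both, and Pearson's r between the log2 fold changes was -0.32 with Spearman's rho of -0.06. Over the 15792 genes in both tables r was -0.21 and rho was -0.23. These are correlations across genes, which are not replicates, and the tables share the scaling choices of the same authors.

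Mrpl23 varied between mice of every group, and its pseudogene varied against it. In OLZ+MINO mice Mrpl23 had 94, 98, 20 and 112 scaled counts and Mrpl23-ps1 had 0, 0, 94 and 0. In OLZ mice Mrpl23 had 99, 52, 94 and 30, and Mrpl23-ps1 had 0, 83, 26 and 76. In CTRL mice Mrpl23 had 119, 52, 8 and 36, and Mrpl23-ps1 had 0, 92, 110 and 73. Where the gene was low its pseudogene was high, and the sum lay between 94 and 144 in all 12 libraries. The within-group SD of log2(value + 1) was 1.21 for the gene and 0.17 for the sum. In MINO mice Mrpl23 had 90, 36, 105 and 118 and Mrpl23-ps1 had 0, 75, 22 and 11, and the sums of the second table lay between 90 and 146. Since the 441 bases are shared without a difference, a read inside them cannot be assigned to either gene by sequence.

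**Figure D5:**
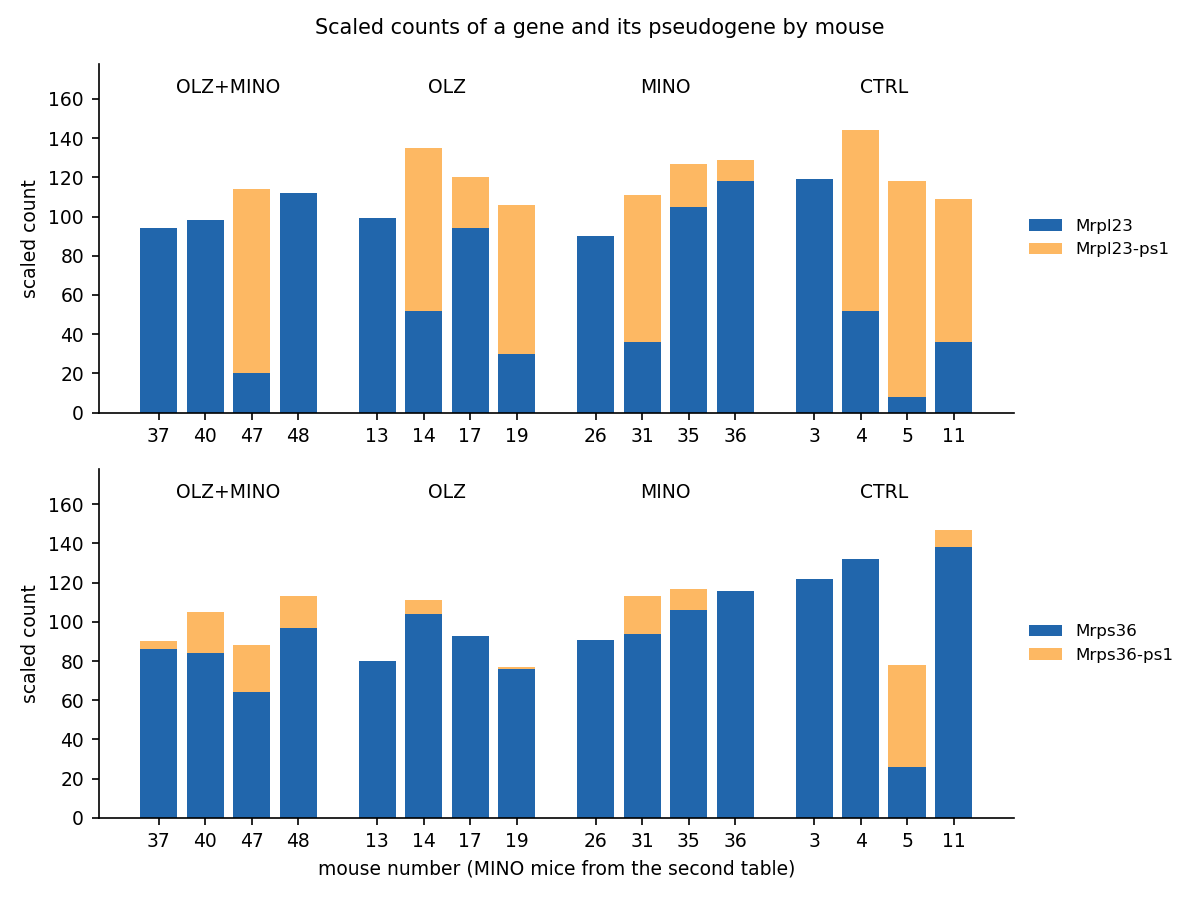
Scaled counts of Mrpl23 with Mrpl23-ps1 and of Mrps36 with Mrps36-ps1 by mouse, stacked. Bars for OLZ+MINO, OLZ and CTRL are from the first table and those for MINO from the second. The division of Mrpl23 runs from all in the gene to 93.2% in the pseudogene (CTRL mouse 5), while its stacked heights stay between 90 and 144.

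When the pseudogene was summed into the gene, an alternative chosen after the values were seen, the log2 fold change of Mrpl23 was -0.09 for OLZ against CTRL, -0.13 for OLZ+MINO against OLZ and -0.12 for MINO against CTRL, in place of 0.72, 0.13 and 1.07. None of these passed the threshold. The 1.07 was the largest log2 fold change of any coding member in any of the 4 comparisons. Mrps36 and its pseudogene showed the same in fewer mice. In OLZ+MINO mice Mrps36 had 86, 84, 64 and 97 and Mrps36-ps1 had 4, 21, 24 and 16. In OLZ mice Mrps36 had 80, 104, 93 and 76 and Mrps36-ps1 had 0, 7, 0 and 1. In CTRL mice Mrps36 had 122, 132, 26 and 138 and Mrps36-ps1 had 0, 0, 52 and 9, so that mouse 5 alone had more of the pseudogene than of the gene. The call of Mrps36-ps1 for OLZ+MINO against OLZ (log2 fold change 2.88, standard error 1.19, adjusted p = 0.269 from limma) rests on these low values, and the groups overlapped, with 4 in 1 OLZ+MINO mouse and 7 in 1 OLZ mouse. It was lost without OLZ mouse 13, 17 or 19 or OLZ+MINO mouse 40, 47 or 48 (adjusted p 0.344 to 0.514). With the 2 summed, Mrps36 differed by 0.14 in that comparison. For OLZ against CTRL the log2 fold change of Mrps36 was 0.00, and it was -0.57 (adjusted p = 0.226) without CTRL mouse 5.

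Beyond these pairs, 40 members overlap another annotated gene and 34 overlap a gene on the other strand. The sources used here do not say whether the authors' counting used the strand, and reads of overlapping genes cannot then be told apart.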

How the data were processed

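RNA-seq libraries of 16 mouse hypothalami were analysed. Per the labels, reads were mapped with Bowtie2, counted with RSEM and analysed with limma by the authors, with mm9 as the named build; the sources used here name no versions. The deposited values are a scaled signal, read counts times 1 factor per library, rounded, since those of the CTRL mice differ between the tables by a nearly constant ratio (medians 1.0048 to 1.00615). No count test was therefore run, although the design provided for one. The columns of the authors' own ratios and p-values were not used.

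Tests ran on log2(value + 1) in limma (version 3.58.1, R 4.3.3; lmFit, then eBayes with intensity trend), with OLZ+MINO, OLZ and CTRL in one fit, MINO and CTRL in another, adjusted over all genes of the table (Benjamini-Hochberg, threshold 0.3). A minimum mean of 1 in at least 1 group removed no gene, so all 78 members were tested. Single genes also had two-sided exact permutation tests. The method was tested on simulated data. Copies were sought with blastn 2.17.0. Reads were estimated from steps between low values, with a limit on regularity set after seeing them. Named members are, in each comparison, up to 6 per direction past the threshold, or the 3 with the smallest p where fewer than 3 passed, and 16 fixed structural members. The members, gene lists and classes were chosen with earlier results of these data known.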

Additional observations from a re-analysis of the deposited data

Results flagged for a closer look

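Across the 32 named genes and 4 groups, 128 groups of 4 mice were examined, and in 11 the highest or lowest mouse stood far from the others. Chance flags about 5% of groups. Among OLZ+MINO mice Mrpl23-ps1 was 94 in mouse 47 and 0 in the others, and among OLZ mice Mrps36-ps1 was 7 in mouse 14. In CTRL mouse 5, Mrps36 was 26, Mrps10 was 203 and Mrpl45 was 167, the last only because the other mice all had 170. In MINO mouse 35, Mrpl12 was 245, Mrpl4 was 201 and Mrpl54 was 119. In MINO mouse 36, Mrpl45 was 157 and Mrps7 was 188, and in MINO mouse 31 Mrpl53 was 46.

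For 2 genes every OLZ+MINO mouse lay on one side of the OLZ mean and every MINO mouse on the other side of the CTRL mean. For Mrps33 the log2 fold changes of OLZ+MINO against OLZ and of MINO against CTRL differed by 1.32, and for Mrps6 by -0.44. These differences were not tested.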

How the results depend on the processing

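No paired analysis was possible because the mouse numbers differ between the groups compared. The count tests planned for raw counts were not run, since whole reads could not be recovered from the scaled values. For OLZ against CTRL, 1 member was called, against 2 with array quality weights (Mrps35 rose, Mrpl21 fell), 2 with only the compared groups in the fit (Mrps35 rose, Mrps25 fell) and 0 at a threshold of 0.05, and between 0 and 4 on leaving out 1 mouse. The 4, without CTRL mouse 5, were Mrps35 and the lower Mrpl12, Mrpl21 and Mrps36 (for Mrps36 the log2 fold change ran from -0.57 to 0.218 over the mice left out), and 6.18% of all genes were then called. For OLZ+MINO against OLZ, 3 were called, against 0 without the intensity trend and 0 at a threshold of 0.05, and between 0 and 3 on leaving out 1 mouse. Mrps33 had an adjusted p of 0.318 with only the compared groups. In the other 2 comparisons 0 members were called under every alternative run. The median log2 fold change of the 78 members on leaving out 1 mouse ran from -0.0507 to -0.0087 for OLZ against CTRL, 0.0047 to 0.0503 for OLZ+MINO against OLZ, -0.0341 to 0.0088 for OLZ+MINO against CTRL and -0.008 to 0.0624 for MINO against CTRL. Scaling to equal totals without the rRNAs moved the OLZ against CTRL median to 0.0216 and that of all genes to 0.0589. Calls across all genes moved as well, with 1.17% called for OLZ+MINO against OLZ when OLZ mouse 13 was left out and 3.48% when OLZ+MINO mouse 48 was, against 12.4% with all mice. The cause of these shifts was not tested. Of the values for single named genes under alternatives, 1827 kept their direction and call, most of them with no call in either fit. All 34 that lost a call in the same direction belonged to Mrps35, Mrps33, Mrpl32 and Mrps36-ps1, the only members called in the main fits. Another 2 gained a call, 85 changed sign with no call in either fit, and 1 changed sign with a call (Mrps36 without CTRL mouse 5). Summing the pseudogenes was an alternative chosen after seeing the data. Depth limits the low members most, with Mrps28 at or under 50 and Mrps36-ps1 at or under 52 scaled counts in every mouse.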
